A study of Mus musculus with 7 samples.

Results

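The genes described here are the 9 best known carriers of the Kit ligand to PI3K, AKT, FOXO and mTOR route by which a resting ovarian follicle starts to grow, and they were chosen by name from the 55487 gene identifiers of the ovarian RNA-seq. They are Kitl and its receptor Kit, the kinase Akt1, the transcription factors Foxo3 and Foxo1, the brake genes Tsc1 and Tsc2, and the growth kinase Mtor with its partner Rptor. All 9 were measured, with between 1997 and 24489 reads per library. Ovaries were compared between control offspring (CNTR, n = 3) and F3 offspring of the prenatally AMH-treated lineage (PAMH F3, n = 4), all C57BL/6J females taken on postnatal day 60 at diestrus. CNTR dams received PBS. The F0 dams behind the PAMH F3 mice received human recombinant anti-Müllerian hormone (AMH), a hormone of granulosa cells, at a daily 0.12 mg/kg between E16.5 and E18.5 of gestation, and the F2 and F3 lineages received no further AMH in pregnancy. The study's methods place CNTR mice in generation 1 and PAMH F3 mice in generation 3, so that group and generation cannot be told apart.

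In a primordial follicle a small oocyte is held at rest by a flat layer of pregranulosa cells. KIT ligand from the somatic cells binds the KIT receptor on the oocyte, which activates PI3K and then AKT. AKT phosphorylates FOXO3, which leaves the nucleus, and the follicle begins to grow; mice without Foxo3 activate their primordial follicles all at once. TSC1 and TSC2 form a complex that holds mTORC1 back, and mTORC1, which is MTOR with RPTOR, drives protein synthesis in the growing oocyte. FOXO1 is the FOXO protein of granulosa cells in growing follicles, where follicle-stimulating hormone acts on it. These steps run through phosphorylation and movement of proteins within the cell, and the libraries read mRNA of the whole ovary only.

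The gene counts per library ran from 32158174 to 35485021. Library CNTR 2 stood apart in base composition, with counts that climbed by 0.32 on the log2 scale for each 10% of GC content against the mean of the 7 libraries, while the slope of the other libraries lay between -0.13 and 0.05. In whole-ovary RNA, fewer cells of a type and less RNA per cell cannot be told apart, so markers of the ovarian cell types are given beside the genes. The summed level of 10 oocyte markers, led by the zona pellucida gene Zp2, was 399.2 to 482.1 CPM in CNTR and 305.4 to 493.9 CPM in PAMH F3. The library PAMH F3 1 was the lowest of all 7 for 9 of these 10 markers. The 8 granulosa cell markers, led by Inha, the inhibin alpha subunit, summed to between 3441 and 5870 CPM in CNTR and between 4149 and 6001 CPM in PAMH F3, with CNTR 3 and PAMH F3 4 the highest. Markers of the remaining types also overlapped between the groups, and no marker was at 0 in every library. Theca and interstitial markers (6 genes, led by Aldh1a1) summed to 2641 to 4371 CPM in CNTR and 3252 to 3753 CPM in PAMH F3, although Insl3, the theca cell hormone, reached 0.15 CPM at most. Luteal markers (6 genes, led by Hsd3b1) summed to 10499 to 13275 CPM in CNTR and 8726 to 12196 CPM in PAMH F3. Smooth muscle markers (5 genes, led by Acta2) summed to 1412 to 2084 CPM and 1129 to 1772 CPM. Markers of tissue next to the ovary were present in every library, where those of oviduct epithelium (4 genes, led by Ovgp1) summed to 3007 to 5303 CPM in CNTR and 2573 to 6428 CPM in PAMH F3, and adipocyte markers (4 genes, led by Fabp4) to 236.6 to 748.6 CPM and 97.2 to 542.5 CPM.

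No member of the pathway differed between PAMH F3 and CNTR ovaries at an adjusted p of at most 0.05 in edgeR's quasi-likelihood test, in which 0 of the 18779 genes tested (0%) passed. The model held 2 surrogate variables, covariates that capture variation between libraries other than the group. At an unadjusted p under 0.05, 2 of the 9 members (22.2%) were higher in PAMH F3, Foxo1 and Tsc1, against 7.64% of all genes tested in either direction and 3.75% in the higher direction, where 1 gene is 11.1% of the 9. DESeq2, too, gave 0 of the 9 members at the adjusted threshold, with the same surrogate variables (background 0.66% of the genes it tested) or without any (background 0.0375%). The groups overlapped for all 9 members, whereas they did not overlap for 4.25% of the genes tested (1.85% higher and 2.4% lower in PAMH F3). The fitted difference was above 0 for 6 members and below 0 for 3, with a median log2 fold change of 0.06, and the median over all genes tested was 0.0049.

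**Figure D1:**
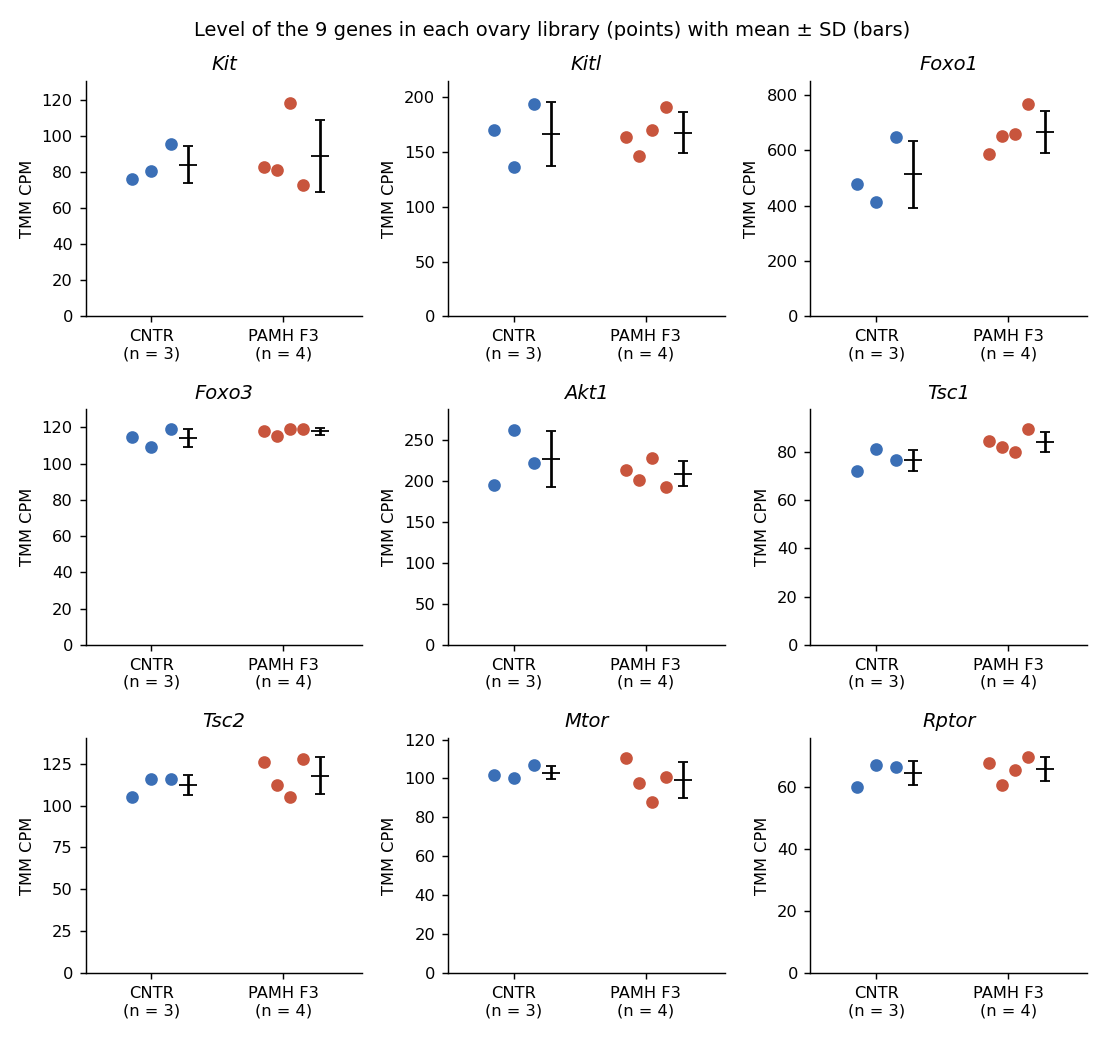
Level of each of the 9 genes in TMM CPM (linear axis from 0) in the 3 CNTR (blue) and 4 PAMH F3 (red) libraries, with points in replicate order from left to right and bars giving the mean ± SD. The groups overlap in every panel, Foxo1 is the gene with the widest separation of means, and 1 PAMH F3 library lies high for Kit at 118.1 CPM.

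Kitl, which encodes the KIT ligand made by granulosa cells, lies on mouse chromosome 10 (mm10, chr10:100015630-100100416, plus strand, ENSMUSG00000019966). Its level was 170.1, 135.6 and 193.2 CPM in CNTR replicates 1 to 3 and 162.9, 145.6, 169.3 and 190.5 CPM in PAMH F3 replicates 1 to 4. CPM here are counts scaled to library size with edgeR's TMM factors. The lowest and the highest library were both CNTR, and all 4 PAMH F3 libraries lay between them. Means were 166.3 ± 29.0 CPM (SD, n = 3) for CNTR and 167.1 ± 18.6 CPM (SD, n = 4) for PAMH F3. The log2 fold change was -0.02 (SE 0.10, 95% interval -0.25 to 0.20), with an adjusted p of 0.982 in edgeR's test. CNTR 3 and PAMH F3 4, the libraries with the most Kitl, also had the highest summed granulosa markers, while CNTR 1, next in Kitl, had the lowest sum of all 7, and the part of granulosa RNA in the Kitl level was not tested.

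Kit encodes the receptor tyrosine kinase carried by oocytes and also by theca, interstitial and mast cells (chr5:75574916-75656722, plus strand, ENSMUSG00000005672). Kit read 75.8, 80.6 and 95.4 CPM in CNTR and 82.7, 81.3, 118.1 and 72.8 CPM in PAMH F3. The PAMH F3 group held both the highest library, replicate 3, and the lowest, replicate 4, and it spread more widely than CNTR. Its mean was 83.9 ± 10.2 CPM (SD, n = 3) for CNTR and 88.7 ± 20.1 CPM (SD, n = 4) for PAMH F3, a log2 difference of 0.13 (SE 0.17, 95% interval -0.26 to 0.53) with an adjusted p of 0.887 in edgeR's test. Without PAMH F3 replicate 3 the log2 difference was -0.06, so that its direction rests on that library. Without CNTR 3 the log2 difference was 0.31 (unadjusted p = 0.0433, edgeR), in a fit where 8.71% of all genes had an unadjusted p under 0.05. In PAMH F3 1, where the oocyte markers were lowest, Kit read 82.7 CPM, and the part of oocyte RNA in the Kit level was not tested. Mast cell markers (6 genes, led by Tpsb2) summed to 10.3 to 21.0 CPM in CNTR and 7.53 to 11.1 CPM in PAMH F3 and were highest in CNTR 3, where Kit read 95.4 CPM. In PAMH F3 3, the library with the most Kit, they summed to 9.65 CPM.

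Ligand and receptor were compared with each other per kilobase of merged exons. The ratio of Kitl to Kit was 3.38, 2.54 and 3.05 in CNTR and 2.97, 2.70, 2.16 and 3.94 in PAMH F3. Kitl was thus the more abundant transcript in all 7 libraries, and the PAMH F3 ratios reached both below and above the CNTR ones. Group means were 2.99 ± 0.43 (SD, n = 3) and 2.94 ± 0.75 (SD, n = 4).

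By the likeness of the profile over the 7 libraries, the tested genes nearest to Kit were Gm15612, Kcnn2 and H2-Q4. Their root mean square differences from Kit were 0.08, 0.09 and 0.09 on the log2 CPM scale, each profile being centred on its own mean. Gm15612 and Kcnn2 rested on few reads, at most 46 and 91 in a library. For Kitl the nearest were Zfp617, St3gal6 and Abhd3, at 0.04, 0.05 and 0.06. St3gal6 read 28.3, 22.8 and 32.7 CPM in CNTR and 25.4, 24.99, 28.3 and 30.1 CPM in PAMH F3, and shared with Kitl its lowest value in CNTR 2 and its highest in CNTR 3. All genes of a library share its depth and base composition.

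Akt1, the kinase that passes the PI3K signal to FOXO and TSC proteins, lies at chr12:112653821-112674884 on the minus strand (ENSMUSG00000001729). Levels were 195.7, 262.5 and 222.2 CPM in CNTR and 213.2, 201.7, 228.2 and 193.0 CPM in PAMH F3. CNTR 2 was the highest library, and CNTR 1 lay among the PAMH F3 ones. Means were 226.8 ± 33.6 CPM (SD, n = 3) and 209.0 ± 15.2 CPM (SD, n = 4), and the log2 fold change was -0.03 (SE 0.07, 95% interval -0.19 to 0.13) with an adjusted p of 0.953 in edgeR's test. Exons of Akt1 hold 59.3% GC, and CNTR 2 was the library with the excess of GC-rich counts. With an offset for GC content and length in place of the surrogate variables, the log2 difference was 0.07. Without CNTR 1 it was -0.20 (unadjusted p = 0.0285, edgeR), in a fit where 17% of all genes had an unadjusted p under 0.05.

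Foxo3, the factor that keeps primordial follicles at rest, was the steadiest of the 9 within PAMH F3 (chr10:42181841-42276755, minus strand, ENSMUSG00000048756). It measured 114.7, 109.0 and 118.9 CPM in CNTR and 118.0, 115.3, 119.1 and 119.3 CPM in PAMH F3. All 7 libraries lay between 109.0 and 119.3 CPM, and CNTR 3 sat among the PAMH F3 libraries. The means of 114.2 ± 4.97 CPM (SD, n = 3) and 117.9 ± 1.85 CPM (SD, n = 4) gave a log2 fold change of 0.04 (SE 0.05, 95% interval -0.08 to 0.16) and an adjusted p of 0.900 in edgeR's test. The coefficient of variation was 4.35% in CNTR and 1.57% in PAMH F3. Exons of Foxo3 hold 57.7% GC, and with the offset for GC content and length its log2 difference was 0.15 (unadjusted p = 0.183, edgeR). These values cover mRNA of the whole ovary and not the protein or its place in the cell.

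Foxo1 had the largest difference of the 9 (chr3:52268336-52353221, plus strand, ENSMUSG00000044167). Its level was 478.3, 414.0 and 646.4 CPM in CNTR and 584.6, 650.9, 658.2 and 767.8 CPM in PAMH F3. CNTR replicates 1 and 2 lay below every PAMH F3 library, and CNTR 3 lay above PAMH F3 1. The mean was 512.9 ± 120.0 CPM (SD, n = 3) for CNTR and 665.4 ± 75.9 CPM (SD, n = 4) for PAMH F3, a ratio of 1.30. The log2 fold change was 0.40 (SE 0.11, 95% interval 0.13 to 0.66) with an unadjusted p of 0.00946 and an adjusted p of 0.536 in edgeR's test. An exact permutation test on mean CPM gave a two-sided p of 0.143, where the 35 divisions of the libraries allow no p below 0.0286. The unadjusted p was 0.0391 in edgeR without surrogate variables and 0.0529 with the GC and length offset, and DESeq2's adjusted p with the same surrogate variables was 0.107. Without CNTR 3, Foxo1 and Foxo3 were above CNTR in all 4 PAMH F3 libraries, at a background of 13.3% of all genes, and without PAMH F3 1 this held for Foxo1 at a background of 9.39%.

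The summed granulosa cell markers followed Foxo1 in some libraries and not in others. Both CNTR libraries with little Foxo1 had the lowest summed granulosa markers of the 7, at 3441 and 3547 CPM, and PAMH F3 4, with the most Foxo1, had the highest at 6001 CPM. In PAMH F3 3, next in Foxo1 at 658.2 CPM, the sum was 4149 CPM, while CNTR 3 summed to 5870 CPM at 646.4 CPM of Foxo1. Amh and Foxl2 were highest in CNTR 2, where Foxo1 was lowest. Set against that sum, Foxo1 read 139.0, 116.7 and 110.1 CPM per 1000 CPM of granulosa markers in CNTR and 140.7, 138.2, 158.6 and 127.9 in PAMH F3. On this scale, which was chosen after the values were seen, the groups overlapped as well. Means were 122.0 ± 15.1 (SD, n = 3) and 141.4 ± 12.8 (SD, n = 4), a ratio of 1.16. The part of granulosa cell content in the Foxo1 difference was not tested further. Of the 8 markers 6 had a fitted difference above 0 and 2 below 0. Unadjusted p values under 0.05 were found for 4 of them in edgeR, with Hsd17b1 (log2 fold change 0.42), an estradiol synthesis enzyme, and Inhba (0.40), an activin subunit, higher in PAMH F3, and Amh and Foxl2 lower, against 7.64% of all genes tested. Without surrogate variables Foxl2 alone of the 8 had an unadjusted p under 0.05, against 3.95% of all genes, and the fitted differences of Fshr and Cyp19a1 were below 0, at -0.05 and -0.23.

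**Figure D2:**
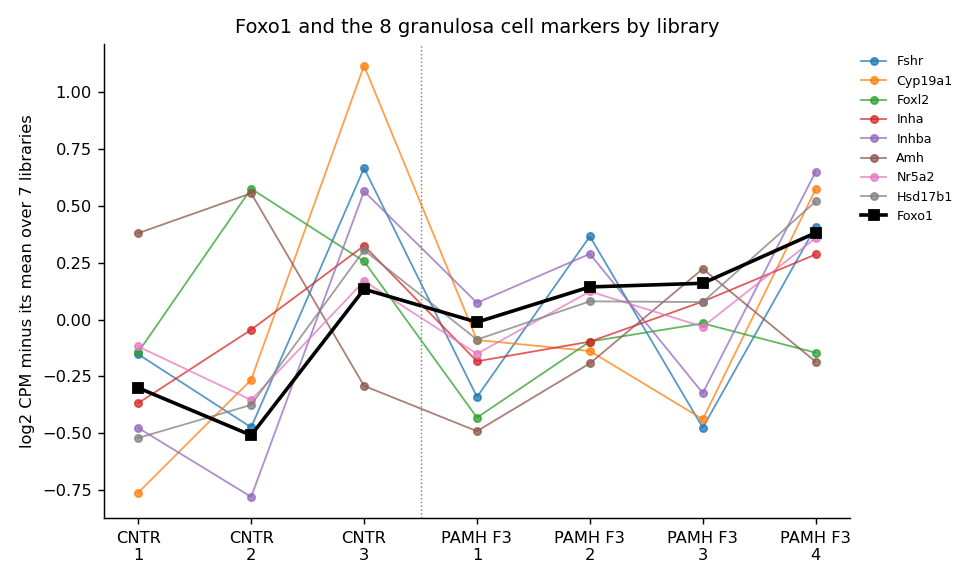
Log2 CPM of Foxo1 (black squares) and of 8 granulosa cell markers (coloured points), each minus its own mean over the 7 libraries, with CNTR left and PAMH F3 right of the dotted line. Foxo1 was lowest in CNTR 2 and highest in PAMH F3 4, most markers peaked in CNTR 3 or PAMH F3 4, and Amh and Foxl2 were highest in CNTR 2.

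Both FOXO genes were also set against each other per kilobase of merged exons. The ratio of Foxo1 to Foxo3 was 3.64, 3.32 and 4.75 in CNTR and 4.33, 4.93, 4.83 and 5.62 in PAMH F3, with CNTR 3 inside the PAMH F3 range. Mean ratios were 3.90 ± 0.75 (SD, n = 3) and 4.93 ± 0.53 (SD, n = 4). Foxo3 varied little between libraries, and the ratio followed the Foxo1 level.

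Tsc1 encodes hamartin, which stabilises the complex that restrains mTORC1 (chr2:28641228-28691167, plus strand, ENSMUSG00000026812). Tsc1 read 72.2, 81.0 and 76.5 CPM in CNTR and 84.4, 82.1, 79.9 and 89.5 CPM in PAMH F3. A single pair crossed, since PAMH F3 3 at 79.9 CPM lay below CNTR 2 at 81.0 CPM. Means were 76.6 ± 4.39 CPM (SD, n = 3) and 83.9 ± 4.11 CPM (SD, n = 4), a ratio of 1.10. Its log2 fold change was 0.16 (SE 0.06, 95% interval 0.01 to 0.31), with an unadjusted p of 0.0412 and an adjusted p of 0.640 in edgeR's test, and a two-sided p of 0.0857 in the exact permutation test. Without surrogate variables the unadjusted p was 0.116. The call was lost in 5 of the 7 fits with a library left out, and without CNTR 1 the log2 fold change was 0.084 (unadjusted p = 0.181, edgeR). With CNTR 2 left out, at a background of 9.81%, or PAMH F3 3 left out, at 9.06%, the Tsc1 groups did not overlap.

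Tsc2 encodes tuberin, the partner that carries the activity against the mTORC1 activator RHEB (chr17:24595816-24632630, minus strand, ENSMUSG00000002496). It stood at 105.2, 115.9 and 115.8 CPM in CNTR and at 126.2, 112.5, 104.8 and 127.4 CPM in PAMH F3. The PAMH F3 libraries split into a higher and a lower pair on either side of CNTR 2 and CNTR 3. The means were 112.3 ± 6.13 CPM (SD, n = 3) and 117.7 ± 10.9 CPM (SD, n = 4), and the log2 fold change of 0.08 (SE 0.08, 95% interval -0.10 to 0.25) had an adjusted p of 0.851 in edgeR's test. Tsc2 shares 693 exon bases, 7.20% of its exons, with Pkd1 on the opposite strand, which had 5712 to 8375 counts, and the strand setting of the counting is not given in the sources used here. Foxo1 likewise shares 674 exon bases (7.78%) with Gm20402, which had 0 to 1 counts. Rptor shares 84 (0.62%) with Rptoros, which had 180 to 266 counts. Per kilobase, the ratio of Tsc1 to Tsc2 was 0.55 ± 0.02 (SD, n = 3) for CNTR and 0.58 ± 0.03 (SD, n = 4) for PAMH F3.

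Mtor, the kinase itself, read 101.8, 100.5 and 106.9 CPM in CNTR and 110.7, 97.6, 88.0 and 100.9 CPM in PAMH F3 (chr4:148448611-148557683, plus strand, ENSMUSG00000028991). CNTR libraries lay close together inside the PAMH F3 range, which PAMH F3 1 and PAMH F3 3 bounded. Means of 103.0 ± 3.39 CPM (SD, n = 3) and 99.3 ± 9.37 CPM (SD, n = 4) gave a log2 fold change of -0.07 (SE 0.07, 95% interval -0.25 to 0.10) and an adjusted p of 0.853 in edgeR's test.

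Rptor, which encodes the subunit that sets mTORC1 apart from mTORC2, measured 60.2, 67.1 and 66.7 CPM in CNTR and 67.8, 60.8, 65.8 and 69.7 CPM in PAMH F3 (chr11:119602905-119899576, plus strand, ENSMUSG00000025583). The groups covered nearly the same range. Its means were 64.7 ± 3.89 CPM (SD, n = 3) and 66.0 ± 3.83 CPM (SD, n = 4), with a log2 fold change of 0.06 (SE 0.07, 95% interval -0.10 to 0.21) and an adjusted p of 0.878 in edgeR's test.

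**Figure D3:**
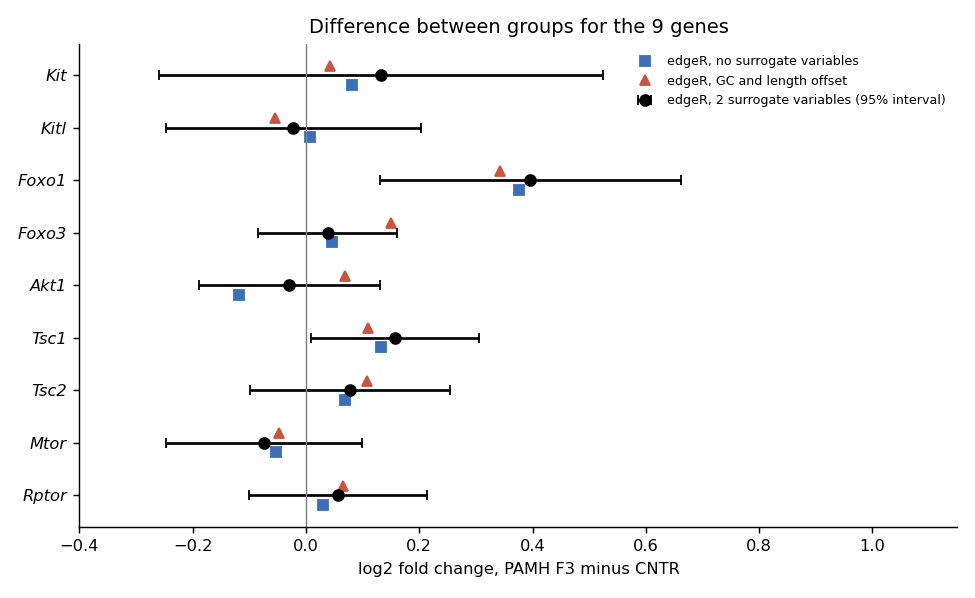
Log2 fold change of each gene, PAMH F3 minus CNTR, from edgeR with 2 surrogate variables (black, with 95% interval), without them (blue squares) and with an offset for GC content and length in their place (red triangles). The intervals of Foxo1 and Tsc1 lie above 0 and the others cross it, and Akt1 changes side with the GC offset.

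The members differed from each other far more than the groups did. Per kilobase of merged exons, Foxo1 led with a median over the 7 libraries of 74.6 CPM per kb (47.8 to 88.6), followed by Akt1 at 52.0 (47.1 to 64.1). These neighbours did not separate cleanly, since Foxo1 was the higher of them in 6 of 7 libraries. Kitl came next at 28.6 CPM per kb (22.9 to 32.7) and Foxo3 at 15.6 (14.4 to 15.8). Tsc2 at 12.0, Mtor at 9.98 and Kit at 9.12 CPM per kb formed a close series, in which Mtor was above Kit in 5 of 7 libraries. Tsc1 at 6.84 and Rptor at 4.95 CPM per kb were the lowest. Each of the other genes exceeded the next one in the order in 7 of 7 libraries. The order depends on the length used, because with the median transcript length Akt1 had rank 1, Kitl rank 2, Tsc2 rank 3 and Foxo1 rank 4.

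**Figure D4:**
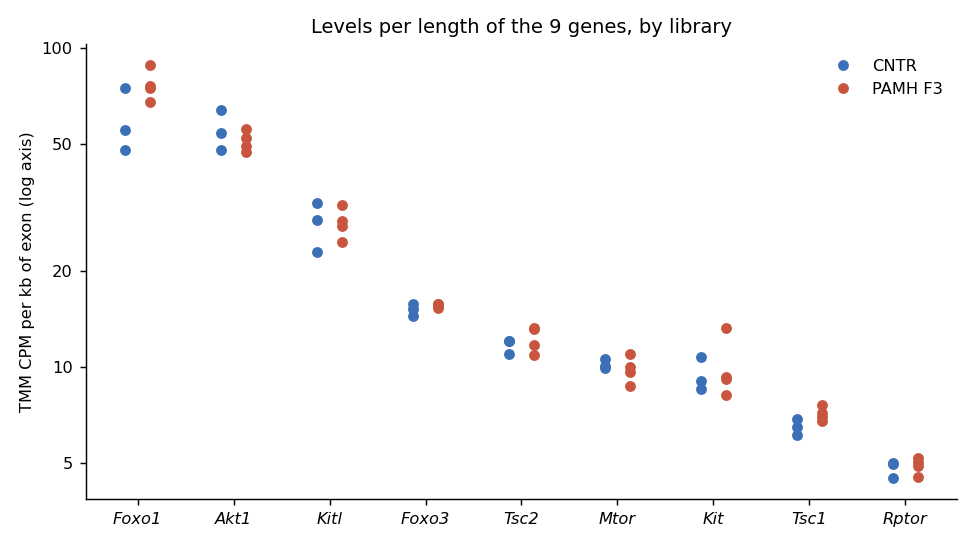
Level of the 9 genes in TMM CPM per kilobase of merged exons (log axis), ordered by their median, with 1 point per library for CNTR (blue) and PAMH F3 (red). The medians span from 4.95 CPM per kb for Rptor to 74.6 for Foxo1, and the groups overlap in each of them.

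The rest of the pathway was read from 98 further genes in 8 lists, of which 96 had enough counts to be tested; Fasl and Sohlh2 had not. At the adjusted threshold 0 of the 96 passed in edgeR's test. An unadjusted p under 0.05 was found for 13 (13.5%), 4 higher and 9 lower in PAMH F3, against 7.64% of all genes, and the groups did not overlap for 5 (5.21%), against 4.25%. Without surrogate variables the 13 became 6, against 3.95% of all genes. The median log2 fold change of the 96 was -0.0084.

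Upstream of PI3K, the median log2 fold change of 15 genes of KIT signalling (adaptors, kinases, phosphatases) was 0.05. Over all genes tested, 7.64% had an unadjusted p under 0.05, 3.75% in the higher direction. Of the 15, 1 (6.67%) had one, higher in PAMH F3. That gene was Gab2, an adaptor that recruits PI3K, at 141.2, 155.8 and 233.6 CPM in CNTR and 181.6, 232.1, 190.2 and 241.4 CPM in PAMH F3. Like Foxo1, it was high in CNTR 3 and highest in PAMH F3 4, and the groups overlapped. Its log2 fold change was 0.35 (unadjusted p = 0.0127, adjusted p = 0.552, edgeR), but 0.15 without CNTR 1 (unadjusted p = 0.323) and 0.26 without surrogate variables (unadjusted p = 0.184). The related adaptor Gab1 did not overlap between the groups, at 71.8 to 85.4 CPM in CNTR and 85.7 to 88.8 CPM in PAMH F3, and its log2 fold change was 0.10 (unadjusted p = 0.108, edgeR), or 0.20 without CNTR 1 (unadjusted p = 0.0125).

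Among 9 PI3K subunits, Pik3cg, the catalytic gamma subunit best known from leukocytes, was the single gene with an unadjusted p under 0.05 (11.1%). The share over all genes tested was 7.64% in either direction and 3.75% in the higher one. Pik3cg read 6.87, 7.05 and 6.499 CPM in CNTR and 8.56, 8.10, 8.37 and 7.995 CPM in PAMH F3, from 210 to 302 counts per library. The 4 PAMH F3 libraries were all above the 3 of CNTR, which held for 1.85% of all genes tested. The log2 fold change was 0.28 (unadjusted p = 0.0454, adjusted p = 0.646, edgeR). The exact permutation p of 0.0286 is the smallest the design allows and only restates that the groups were apart. With a library left out, the log2 fold change ran from 0.26 to 0.29 and the unadjusted p was above 0.05 in 7 of 7 fits. Summed leukocyte markers (5 genes, led by Lyz2) ran from 336.0 to 362.7 CPM in CNTR and from 224.5 to 449.0 CPM in PAMH F3. Most of this sum was Lyz2, at 172.1 to 367.3 CPM, and the part of leukocyte RNA in the Pik3cg level was not tested. The median log2 fold change of the 9 subunits was 0.02.

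No gene had an unadjusted p under 0.05 among 6 PI3K brakes and PDK1, 6 further AKT isoforms, FOXO and GSK3 genes, and 10 partners of the mTOR and TSC complexes. Their median log2 fold changes were -0.0068, 0.0078 and -0.016, and the share of such p values over all genes tested was 7.64%.

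Of 10 genes acted on by mTORC1, 2 (20%) had an unadjusted p under 0.05, both lower in PAMH F3. The share over all genes tested was 7.64% in either direction and 3.89% in the lower one. The list median was -0.0031 on the log2 scale. Eif4ebp1, the translation inhibitor that mTORC1 phosphorylates, read 28.2, 39.3 and 26.1 CPM in CNTR and 22.3, 25.5, 27.7 and 22.9 CPM in PAMH F3, and its log2 fold change was -0.24 (unadjusted p = 0.0163, adjusted p = 0.567, edgeR). Tfeb, a lysosomal transcription factor that mTORC1 keeps out of the nucleus, stood at 6.54, 14.3 and 8.29 CPM in CNTR and 5.81, 5.36, 8.51 and 4.83 CPM in PAMH F3, and its log2 fold change was -0.39 (unadjusted p = 0.0416, adjusted p = 0.640, edgeR). Both genes were highest in CNTR 2, and the groups overlapped. Eif4ebp1 was at -0.38 without CNTR 1 and at -0.16 without CNTR 2 (unadjusted p = 0.0974, edgeR). Its log2 fold change was -0.34 with the GC and length offset, a fit without surrogate variables, and also -0.34 without surrogate variables alone. For Tfeb the values were -0.83 without CNTR 1, -0.23 without PAMH F3 2 (unadjusted p = 0.179, edgeR) and -0.36 with the offset (unadjusted p = 0.0674). Rps6, named after its values were seen, had between 1.03 and 2.04 CPM, and reads that also fit elsewhere in the genome were not counted.

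Among 22 FOXO target genes, 21 were tested and 6 (28.6%) had an unadjusted p under 0.05, 2 higher and 4 lower in PAMH F3, against 7.64% of all genes. Without surrogate variables 2 of the 21 had one, against 3.95% of all genes. The list median was -0.04 on the log2 scale. Cdkn1a, which encodes a cell-cycle inhibitor, differed most, and it is a gene the study itself picked from these libraries. The paper also reports altered DNA methylation at Cdkn1a in PAMH F3 ovaries, by a separate sequencing assay. The Cdkn1a level was 66.0, 73.0 and 63.7 CPM in CNTR and 46.5, 36.9, 33.2 and 35.8 CPM in PAMH F3. The groups were apart, with no library between 46.5 and 63.7 CPM. Means were 67.6 ± 4.82 CPM (SD, n = 3) and 38.1 ± 5.81 CPM (SD, n = 4). The log2 fold change was -0.83 (SE 0.13, 95% interval -1.14 to -0.53), with an adjusted p of 0.365 in edgeR's test and of 2.11e-05 in DESeq2 with the same covariates.

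Klf2, a transcription factor of resting lymphocytes and endothelium, was the other FOXO target whose groups did not overlap, against 2.4% of all genes in the lower direction. It measured 10.4, 15.9 and 10.9 CPM in CNTR and 7.45, 8.82, 10.1 and 7.18 CPM in PAMH F3, a log2 fold change of -0.43 (unadjusted p = 0.00333, adjusted p = 0.511, edgeR). Exons of Klf2 hold 61.6% GC, and the value was -0.26 with the GC and length offset and -0.65 without CNTR 1. Endothelial markers (5 genes, led by Kdr) summed to 226.0 to 262.4 CPM in CNTR and 182.9 to 272.4 CPM in PAMH F3, and all 5 had a fitted difference below 0. Their part in the Klf2 difference was not tested. Gadd45a, a stress response gene, read 59.5, 109.9 and 69.7 CPM in CNTR and 50.3, 58.8, 75.2 and 46.7 CPM in PAMH F3, with its peak in CNTR 2 and a log2 fold change of -0.26 (unadjusted p = 0.00423, adjusted p = 0.511, edgeR). It was -0.60 without CNTR 1, -0.17 without CNTR 2 and -0.46 without surrogate variables (unadjusted p = 0.0666, edgeR).

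The remaining FOXO targets with an unadjusted p under 0.05 overlapped between the groups. Sesn3, a sestrin that restrains mTORC1, had means of 265.8 ± 76.0 CPM (SD, n = 3) and 238.7 ± 46.6 CPM (SD, n = 4), with a log2 fold change of -0.31 that was 0.08 without CNTR 1. Irs2, an insulin receptor substrate, had means of 24.6 ± 6.31 CPM (SD, n = 3) and 25.5 ± 2.04 CPM (SD, n = 4), with a log2 fold change of 0.24 that was -0.14 without CNTR 1. Both directions thus rest on that library. Ccnd1, which encodes cyclin D1 and is repressed by FOXO factors, had means of 75.2 ± 15.9 CPM (SD, n = 3) and 92.1 ± 24.0 CPM (SD, n = 4) and a log2 fold change of 0.29 (unadjusted p = 0.0157, adjusted p = 0.567, edgeR), which was 0.15 without PAMH F3 3 (unadjusted p = 0.0603) and had an unadjusted p of 0.191 without surrogate variables.

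**Figure D5:**
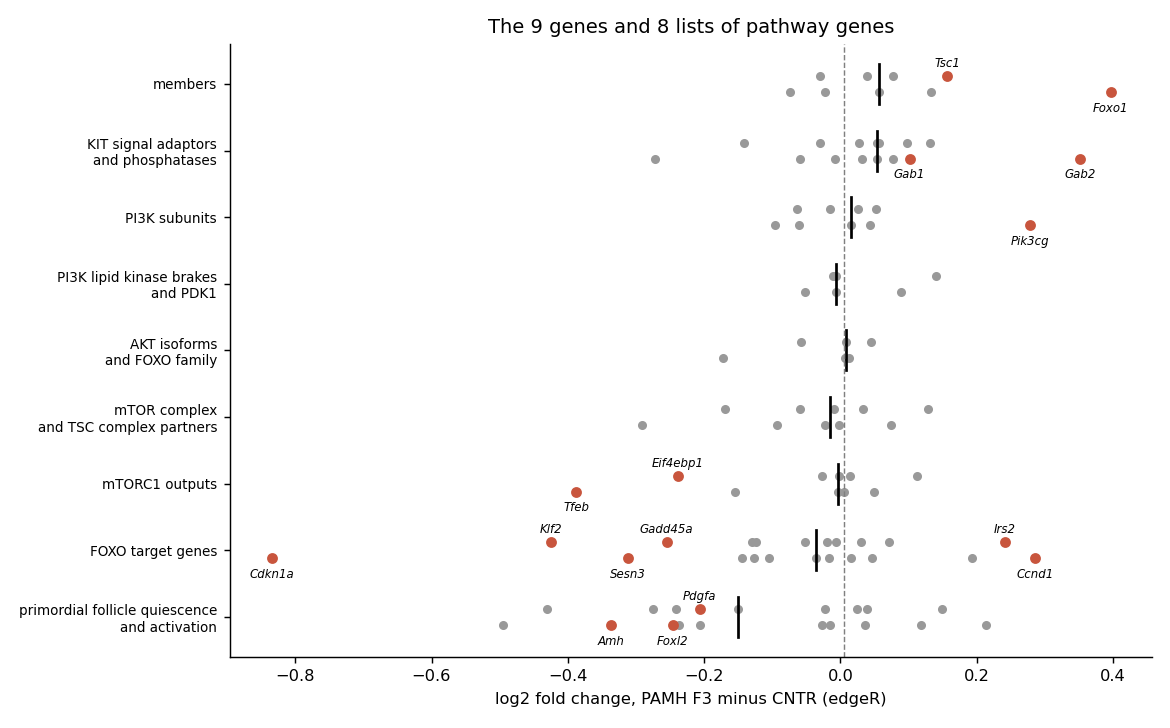
Log2 fold change of each tested gene, PAMH F3 minus CNTR (edgeR), for the 9 members and 8 lists of other pathway genes, with a vertical bar at each list's median and a dashed line at the median of all genes tested. Genes in red had an unadjusted p under 0.05 or groups that did not overlap, Cdkn1a is the farthest from 0 at -0.83, and the medians of 7 of the 8 lists lie between -0.04 and 0.05.

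The forkhead sequence GTAAACA, which FOXO proteins can bind, was searched on both strands of the promoters that RefSeq gives on GRCm38.p6, the mm10 assembly, from 250 bases before to 50 bases after each start. It was found for 4 of the 18 FOXO target genes with an entry (22.2%) and for 1 of the 9 members, Akt1. Over the members and all pathway genes with an entry it was found for 8 of 86 (9.3%), against 4.05% of 27025 genes. Among the FOXO targets, Sesn1 held it in an exon. The matches outside annotated exons are shown because they are the places in the members and FOXO targets where the letters occur, 5′ to 3′ on the strand of the gene, with the match in capitals (in the reverse orientation it reads TGTTTAC). The first is of the member Akt1, at chr12:112675012-112675072 on the minus strand, and then come the cell-death gene Bcl2l11 at chr2:128125788-128125844, the metabolic regulator Txnip at chr3:96557809-96557869 and the muscle ubiquitin ligase Trim63 at chr4:134314899-134314959, all on the plus strand.
Akt1: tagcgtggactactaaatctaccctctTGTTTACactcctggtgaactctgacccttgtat
Bcl2l11: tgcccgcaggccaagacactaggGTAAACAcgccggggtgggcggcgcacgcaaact
Txnip: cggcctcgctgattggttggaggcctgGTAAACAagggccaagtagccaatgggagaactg
Trim63: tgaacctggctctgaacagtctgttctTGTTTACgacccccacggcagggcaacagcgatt
None of these genes had an unadjusted p under 0.05, and Trim63 had only 5 to 26 counts per library. No match was found for Cdkn1a, Klf2, Gadd45a, Sesn3, Irs2 and Ccnd1. The search covered promoters of 18 of the 22 FOXO targets, so a gene without an entry looks the same as one without the letters. In the other pathway lists the letters occurred for Pik3cg, 89 bases before a start, and for Mapkap1 and Stk11. Of these, Pik3cg had an unadjusted p under 0.05 (0.0454, edgeR). A match is a description of letters and not a site of binding.

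The last list held 20 genes of primordial follicle rest and activation, of which 19 were tested and 3 had an unadjusted p under 0.05, all lower in PAMH F3, against 7.64% of all genes in either direction and 3.89% in the lower one. Its median log2 fold change was -0.15, the farthest from 0 of the 8 lists, with 6 genes above 0 and 13 below. The list shares Gdf9 and Bmp15 with the oocyte markers and Amh and Foxl2 with the granulosa markers. Several of the 19 were close to the limit of counting, such as the oocyte factors Sohlh1 at 0.65 and Figla at 0.72 CPM in CNTR, which were singled out after their values were seen.

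Pdgfa, a growth factor of the platelet-derived family, was the member of this list whose groups did not overlap, against 2.4% of all genes in the lower direction. It measured 27.3, 30.4 and 28.3 CPM in CNTR and 26.0, 25.4, 23.0 and 23.6 CPM in PAMH F3. The log2 fold change was -0.21 (unadjusted p = 0.0449, adjusted p = 0.646, edgeR), and it was -0.11 with the GC and length offset (unadjusted p = 0.293). Foxl2, the granulosa cell identity factor, read 50.02, 82.4 and 66.0 CPM in CNTR and 41.0, 51.7, 54.6 and 49.9 CPM in PAMH F3. CNTR 2 was again the highest library, and the log2 fold change was -0.25 (unadjusted p = 0.0108, adjusted p = 0.540, edgeR). It was -0.58 without CNTR 1 and -0.16 with the GC and length offset (unadjusted p = 0.163, edgeR).

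Amh, the hormone that restrains recruitment of primordial follicles and the agent given to the F0 dams, stood at 124.3, 140.4 and 78.0 CPM in CNTR and 68.0, 83.6, 111.5 and 84.0 CPM in PAMH F3. CNTR 3 lay among the PAMH F3 libraries. Its log2 fold change was -0.34 (unadjusted p = 0.0373, adjusted p = 0.631, edgeR). With the GC and length offset it was 0.03, so that the direction depended on that setting. Exons of Amh hold 65.4% GC.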

How the data were processed

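Polyadenylated RNA of 7 mouse ovary samples (3 CNTR, 4 PAMH F3) was sequenced by the authors after stranded library preparation. Per the labels, the processing used bcl2fastq 2.17.1.14, STAR 2.5.3a on mm10 and HTSeq 0.6.1p1, and the deposited values are raw read counts per gene, without normalization. HTSeq's 5 summary lines, in which 37.7% to 40.69% of alignments per library were set aside as not unique, were left out of tests and library sizes. Of 55487 identifiers 55394 were matched to GENCODE M21 for symbols and positions. The labels do not say which animal gave each sample, so p values measure only the spread between these samples.

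Counts were scaled by TMM over all genes. The 18779 genes kept by filterByExpr (minimum count 10) were tested with edgeR 4.0.16 in R 4.3.3 (quasi-likelihood F test, Benjamini-Hochberg adjustment over all genes, threshold 0.05), with 2 surrogate variables from svaseq in sva 3.50.0 on genes with a mean count above 1 (number by num.sv with 20 permutations, seed 1, at most 3). The fit left 3 residual degrees of freedom. The alternative tool was DESeq2 1.42.0. The scripts were tested on simulated data. Single genes were also tested by an exact two-sided permutation of mean CPM over 35 divisions of the libraries. Log2 CPM profiles used a prior count of 2.

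Members and lists were chosen with earlier results of these data known. Named are the 9 members, each list gene with an unadjusted p under 0.05 or groups that do not overlap in CPM, the top gene of each marker list and any marker at 0 throughout, and the 3 genes nearest in profile to Kit and to Kitl. Alternatives changed the number of surrogate variables, tool, size factors, filter, robust fitting, a replicate block, a GC and length offset, the libraries (each left out in turn), and the length. The fits with the replicate block or with the offset held no surrogate variables. The scale of Foxo1 on granulosa markers was chosen after seeing the data.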

Additional observations from a re-analysis of the deposited data

How the results depend on the processing

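Under every alternative tried, 0 of the 9 members passed the adjusted threshold. The direction of Foxo1, Foxo3, Tsc1, Tsc2 and Mtor was the same under all of them, with log2 fold changes of 0.31 to 0.52 for Foxo1. Members with an unadjusted p under 0.05 fell from 2 to 1 without surrogate variables, with 1 surrogate variable and in DESeq2 with or without them, and to 0 with the GC and length offset. The share over all genes was 3.95%, 6%, 3.23%, 2.49% and 4.36% in these, in the same order. The DESeq2 shares of 3.23% and 2.49% are over 33791 and 33785 genes without the filter on low counts. They cannot be set directly against the edgeR shares. With a library left out the members ranged from 1 to 2, and the share from 4.34% to 17%. Foxo1 had an unadjusted p under 0.05 in 7 of these 7 fits and Tsc1 in those without CNTR replicate 2 or PAMH F3 replicate 3. Without CNTR replicate 1 the other gene was Akt1 (lower, edgeR unadjusted p = 0.0285), at a share of 17% over all genes. Without CNTR replicate 3 it was Kit (higher, edgeR unadjusted p = 0.0433), at a share of 8.71%. Members whose groups did not overlap ranged from 0 to 2 with a library left out, against 6.09% to 15.5% of all genes.

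Among the 96 pathway genes, 1 passed the adjusted threshold in DESeq2 with and without surrogate variables and without the filter on low counts, and from 0 to 1 with a library left out; the gene was Cdkn1a (adjusted p = 0.045 in edgeR without the filter and 0.021 without PAMH F3 replicate 1), but Cited2 (adjusted p = 0.0487 in edgeR) without CNTR replicate 1. Over all genes, 39 passed in edgeR without CNTR replicate 1, 37 without PAMH F3 replicate 1 and 8 without the filter. Pathway genes with an unadjusted p under 0.05 numbered 6 without surrogate variables, 4 with the GC and length offset, and from 5 (without PAMH F3 replicate 2) to 20 (without CNTR replicate 1), with 8 without PAMH F3 replicate 3. The share over all genes, 7.64% as reported, was 3.95%, 4.36%, 4.34%, 17% and 6.35% in these, in the same order. Of all unadjusted calls, 49.1% were higher in PAMH F3, against 28.1% without surrogate variables and 32.5% with the offset.

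Deviations of same-numbered libraries correlated at 0.0957, 0.0965 and -0.248, which gave no sign that replicate numbers pair the samples. Differently numbered libraries were not compared, so a weak pairing was not tested. With the replicate number as a block and no surrogate variables, 0 members and 4 pathway genes had an unadjusted p under 0.05 (2.38% of all genes), and 31.8% of all such calls were higher in PAMH F3.

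Directions turned for Kit (-0.064 to 0.31 with a library left out), Kitl (0.0071 without surrogate variables, 0.0057 with 1, 0.0082 in DESeq2 without them, and -0.10 to 0.057 with a library left out), Akt1 (0.069 with the offset, -0.20 to 0.023 with a library left out), Rptor (-0.024 to 0.10), Sesn3 (-0.41 to 0.079), Irs2 (-0.14 to 0.33) and Amh (0.032 with the offset). With the median transcript length, mean ratios in CNTR and PAMH F3 were 4.04 and 3.98 for Kitl to Kit, 1.31 and 1.65 for Foxo1 to Foxo3, and 0.139 and 0.146 for Tsc1 to Tsc2. Causes of these shifts were not tested. With 3 and 4 libraries, standard errors of the members ran from 0.05 to 0.17 on the log2 scale.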
